A study of Mus musculus with 10 samples.

Results

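Complex I, the NADH:ubiquinone oxidoreductase, is the entry point of most electrons into the mitochondrial respiratory chain. It takes electrons from NADH in its peripheral arm, passes them along a chain of iron-sulfur clusters to ubiquinone, and pumps protons through its membrane arm. A set of core subunits does the catalytic work, some of them encoded by the nuclear and some by the mitochondrial genome. Accessory subunits surround the core, and assembly factors help to build the complex without staying in it. In brain, the complex supports the ATP supply of synapses and axons, and inherited defects of it cause Leigh syndrome.

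The genes described here are those whose symbol starts with Nduf followed by the letters of a subunit or assembly-factor series and a number. They were found among array probe sets that name a single gene, and 46 of the 30142 genes tested fulfilled this rule. Of these, 43 carried the symbol in the array annotation, and Ndufaf8, Ndufb4c and Ndufa11b were recognised through an updated symbol. The rule used names alone and no measured value, but the group was chosen with earlier results of these data known. Each of the 46 genes had 1 probe set, and their transcripts come from 17 chromosomes. The group holds 6 nuclear core subunits, 9 accessory subunits of the peripheral arm, 8 of the proximal and 9 of the distal membrane arm, the acyl carrier protein Ndufab1 and 8 assembly factors. It also holds Ndufa4 and Ndufa4l2, whose names are historical, and 3 gene copies (Ndufb4b, Ndufb4c and Ndufa11b) that may share probes with Ndufb4 and Ndufa11. The probe sets that name Ndufb4 or Ndufa11 also name such a copy and were not used. Ndufb1 was not analysed here.

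Mouse brain RNA was measured on 10 Affymetrix whole-transcript arrays, each with 1 sample, 7 days after controlled cortical impact, in which a piston strikes the cortex of one hemisphere to a depth of 2 mm. The 5 ipsilateral samples came from the impact site and the 5 contralateral samples from the matching region of the uninjured hemisphere of injured mice, 8 to 12 weeks old. The labels name no strain and no sham group, so both sides come from injured animals, and they call the samples biological replicates without saying which of them share a mouse. They name both sexes, but Xist lay between 4.53 and 4.67 and 3 Y-linked genes between 7.75 and 8.88 on every array. All values are the authors' deposited log2 signals, and a difference is the ipsilateral minus the contralateral mean. The number of arrays limits the precision. Array medians ran from 4.79 to 4.84 ipsilaterally and from 4.71 to 4.77 contralaterally, so an offset between arrays cannot be told apart from side. Neuron markers were present on both sides. The mean signal of 10 such genes lay between 13.40 and 13.83 ipsilaterally and between 13.73 and 13.95 contralaterally. In bulk tissue, fewer cells of a type and less RNA per cell cannot be told apart.

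Promoters were searched for the motif cores of 4 known regulators of respiratory genes. RefSeq (GRCm38.p6) promoter windows, from 250 bases before to 50 bases after the annotated start, were held for 39 of the 46 genes. The letters ATGGCGG, a core of the YY1 motif, stood on either strand in 10 of the 39 windows (25.6%), against 4.69% of all genes in the table and 6.05% of protein-coding ones. In 6 of the 10 genes a match lay at or after the start, and ATGGCG also spells a start codon followed by an alanine codon. The NRF1 core GCATGCG, which can overlap with its own reverse complement, was found in 4 genes (10.3%, against 4.01% of all and 4.96% of protein-coding ones). The ETS core CCGGAAG, which GABP binds, was found in 6 genes (15.4%, against 9.93% and 12.9%), and the core AAGGTCA of estrogen-related receptors in 2 (5.13%, against 5.38% and 4.73%). These matches are descriptions of letters and show no binding. A pair of examples follows, each with the 120 bases before the start, 5′ to 3′ on the gene's own strand and with the match in capitals. Ndufs3 (chr2:90904722-90904841, minus strand) was chosen as a core subunit described below and carries the ETS core, and Ndufa8 (chr2:36049339-36049458, minus strand) carries the NRF1 core on both strands.
Ndufs3: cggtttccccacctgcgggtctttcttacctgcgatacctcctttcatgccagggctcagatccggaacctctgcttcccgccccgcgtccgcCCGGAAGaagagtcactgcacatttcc
Ndufa8: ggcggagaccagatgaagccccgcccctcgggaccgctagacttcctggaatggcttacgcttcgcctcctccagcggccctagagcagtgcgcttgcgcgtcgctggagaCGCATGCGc

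The comparison asked whether transcripts of complex I genes differed between the impact site and the opposite hemisphere. Differences were small. Only Ndufs1 fell in ipsilateral tissue among the 46 genes, and none rose, in limma with Benjamini-Hochberg adjustment over all 30142 genes at a threshold of 0.05. That is 2.17% of the genes lower, where 4.33% of all genes were lower, 1.22% higher and 5.55% changed in either direction. The share of all genes called lower varied with the mean signal. It was 0.56% up to 6, where 1 of the 46 genes lay, 5.03% between 6 and 8 and 11.4% between 8 and 10. Between 10 and 12 it was 14.3%, and above 12 it was 8.89%. At an unadjusted p under 0.05, 12 of the 46 genes were lower and 1 was higher, as were 3400 and 3020 of all genes. The 46 differences ran from -0.32 (Ndufaf5) to 0.25 (Ndufv3). Their median was -0.11, against 0.02 over all genes tested, and 34 of 46 (73.9%) were negative, against 43.9% of all genes. The 95% intervals of the fit had half-widths from 0.11 to 0.31 around each difference. All 46 intervals excluded a 2-fold change in either direction, and 45 excluded a change of 0.5 on the log2 scale. The exception was Ndufaf5, whose interval reached -0.52. In 5 genes, Ndufs1, Ndufs3, Ndufv1, Ndufs4 and Ndufaf5, every ipsilateral array lay below every contralateral one (10.9%, against 5.21% of all genes), and in none did every ipsilateral array lie above (2.04% of all genes). The shares of all genes without overlap and with negative differences were not matched for signal level. Of the 30142 genes, 16597 had a mean up to 6, where only 1 of the 46 lay.

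**Figure D1:**
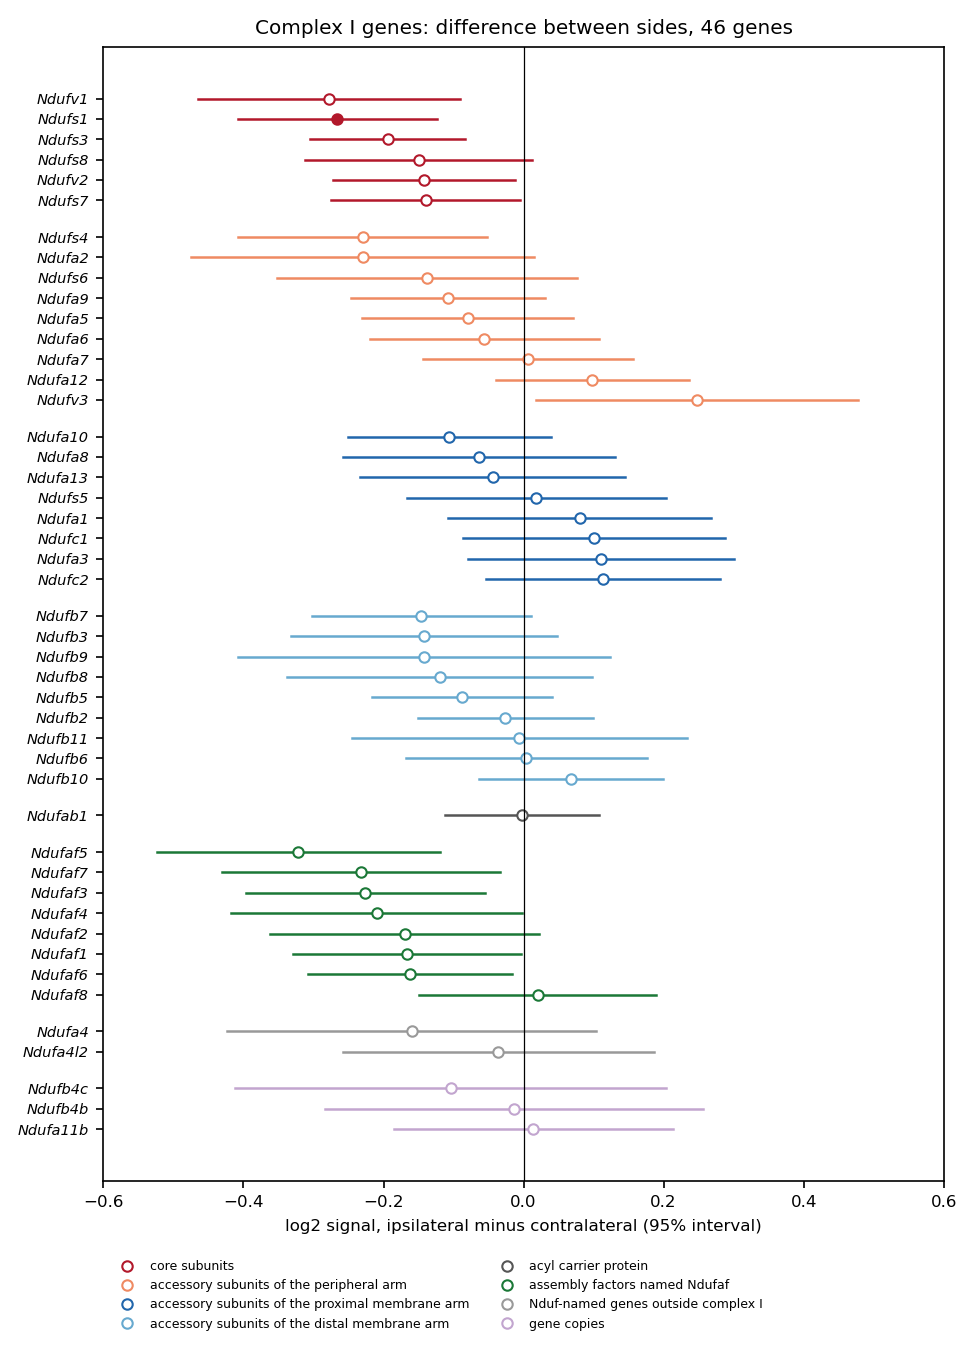
The difference in log2 signal, ipsilateral minus contralateral, for each of the 46 genes, grouped by role, with its 95% interval from limma; the filled point marks the gene with an adjusted p under 0.05. All 6 measured core subunits lie left of 0, with Ndufs1 as the filled point, while the proximal membrane arm lies on both sides of it.

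The nuclear core subunits carry the electrons from NADH to ubiquinone. Of the 6 measured, 1 fell, none rose, and all 6 had negative differences, with a median of -0.17. Ndufs1, the large subunit of the NADH-oxidising module with several of the iron-sulfur clusters, read 11.35, 11.21, 11.14, 11.12 and 11.06 on ipsilateral replicates 1 to 5 and 11.44, 11.46, 11.39, 11.39 and 11.53 on contralateral replicates 1 to 5. Every ipsilateral value was below every contralateral one. The means were 11.18 ± 0.11 and 11.44 ± 0.06 (SD, n = 5 per side), and the difference was -0.27 ± 0.06 (SE, adjusted p = 0.0387 in limma), a linear ratio of 83.2%. Leaving out single arrays ended the call in 9 of 10 cases, with adjusted p from 0.0551 to 0.0986, and held without ipsilateral replicate 1 (0.0114), whose value lay nearest to the contralateral ones. It also ended with quantile scaling (-0.20, adjusted p = 0.131) and cyclic loess scaling (-0.18, adjusted p = 0.168).

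Ndufs3, a core subunit of the ubiquinone-reducing module, separated the sides with little spread. Ipsilateral replicates 1 to 5 read 9.37, 9.33, 9.33, 9.35 and 9.27, and contralateral replicates 1 to 5 read 9.50, 9.50, 9.49, 9.50 and 9.63. The groups did not overlap, contralateral replicate 5 stood above the other 4, and the difference of -0.19 ± 0.05 did not pass (adjusted p = 0.0510). Ndufv1, which binds FMN and receives the electrons of NADH, read 10.14, 10.07, 9.91, 10.10 and 10 against 10.30, 10.16, 10.34, 10.22 and 10.59. These groups did not overlap either, though the closest arrays lay side by side, and the difference of -0.28 ± 0.08 did not pass (adjusted p = 0.0855). The iron-sulfur subunits Ndufv2 (-0.14, interval -0.27 to -0.01), Ndufs7 (-0.14, interval -0.28 to -0.01) and Ndufs8 (-0.15, interval -0.31 to 0.01) had overlapping groups and adjusted p from 0.197 to 0.274. These 3 and Ndufv1 are given because they complete the core subunits measured. The mean signal of the 6 core genes was 10.42 to 10.53 on ipsilateral arrays and 10.61 to 10.81 on contralateral ones. All 6 differences stayed negative with quantile, median and cyclic loess scaling and without each array in turn, with a median from -0.23 to -0.10 over these settings.

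**Figure D2:**
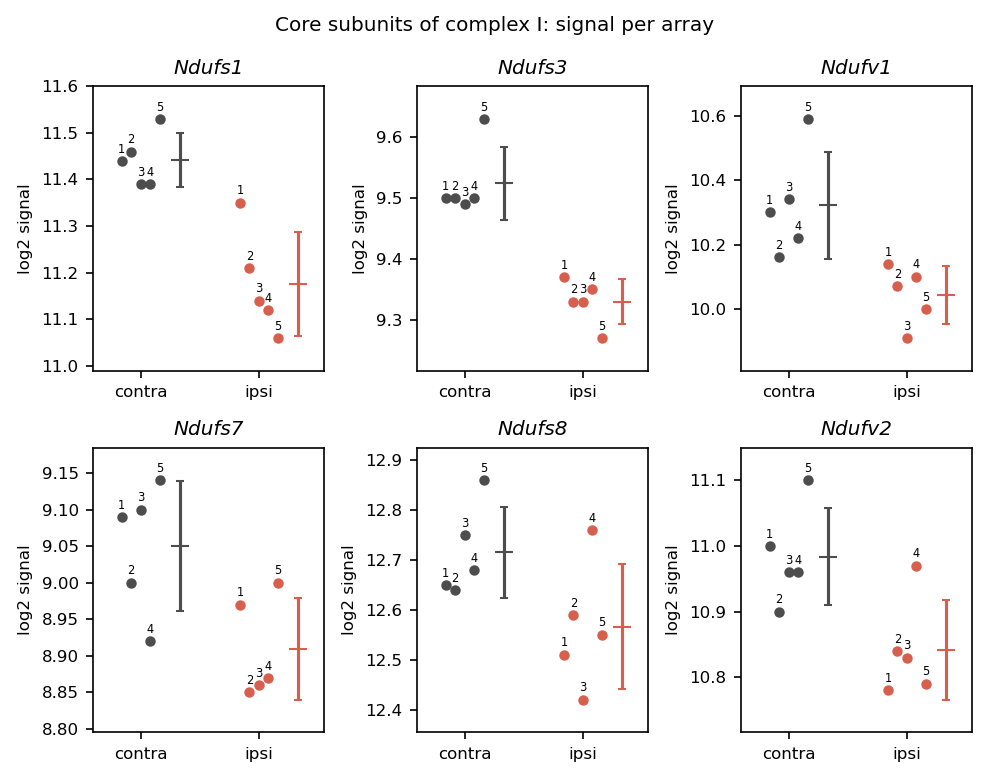
Log2 signal of the 6 measured nuclear core subunits on each array, labelled by replicate number, with the mean and SD of 5 arrays beside each side; the vertical axes differ between panels and do not start at 0. Ndufs1, Ndufs3 and Ndufv1 show no overlap of the sides, and contralateral replicate 5 is the highest contralateral array in all 6 panels.

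The accessory subunits of the peripheral arm surround these core proteins. None of 9 passed in either direction (1 lower and 1 higher at an unadjusted p under 0.05 in limma), 6 differences were negative and 3 positive, and the median was -0.08. Ndufs4, which stabilises the NADH-oxidising module and whose loss in mice gives a Leigh-like brain disease, read 10.20, 10.04, 9.89, 10.06 and 10.16 ipsilaterally and 10.27, 10.24, 10.23, 10.23 and 10.53 contralaterally. The sides did not overlap, but ipsilateral replicate 1 came close to the lowest contralateral arrays, and the difference of -0.23 ± 0.08 did not pass (adjusted p = 0.131). Ndufa2, a small subunit of the NADH-oxidising module, had the same difference, -0.23 ± 0.11, with overlapping groups (9.77 to 10.35 against 10.15 to 10.54, adjusted p = 0.265).

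Ndufv3, an accessory subunit next to Ndufv1 and Ndufv2, had the highest positive difference of the 46 genes. It read 10.25, 10.39, 10.35, 10.37 and 10.78 ipsilaterally and 10.27, 10.18, 9.95, 10.20 and 10.30 contralaterally. Ipsilateral replicate 5 was highest and ipsilateral replicate 1 lay inside the contralateral range. The difference of 0.25 ± 0.10 had an interval from 0.02 to 0.48 and did not pass (adjusted p = 0.202). It stayed positive in each of the 21 other settings, between 0.16 without ipsilateral replicate 5 and 0.34 with cyclic loess scaling, and passed in none of them. Ndufa12, which binds late in assembly, also had a positive difference (0.10 ± 0.06, adjusted p = 0.412), and Ndufa7 was close to 0 (0.01 ± 0.07).

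The membrane arm pumps protons. Of 8 accessory subunits in its proximal part, none passed in limma and none had an unadjusted p under 0.05, 3 differences were negative and 5 positive, and the median was 0.05. The 2 with the strongest statistics pointed in opposite directions. Ndufa10, a subunit related to nucleoside kinases, stood at 12.05 to 12.24 ipsilaterally and 12.11 to 12.37 contralaterally (-0.11 ± 0.07, adjusted p = 0.396). Ndufc2, a small membrane subunit, stood at 11.88 to 12.25 and 11.88 to 12.08 (0.11 ± 0.08, adjusted p = 0.430). Both pairs of ranges overlapped. The sign of the median in this group depended on scaling, being -0.01 with 4 of 8 positive when arrays were centred on their medians, and 0.07 with 7 of 8 positive with cyclic loess scaling.

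Of 9 accessory subunits in the distal part of the membrane arm, none passed in limma and none had an unadjusted p under 0.05, 7 differences were negative and 2 positive, and the median was -0.09. Ndufb7, which faces the intermembrane space, read 6.38 to 6.63 ipsilaterally and 6.56 to 6.80 contralaterally (-0.15 ± 0.07, adjusted p = 0.267). Ndufb3 read 9.19 to 9.58 and 9.27 to 9.55 (-0.14 ± 0.09, adjusted p = 0.385). Ndufb9, named because its probe set had the highest mean value of the 46 (15.71), read 15.39 to 15.85 and 15.47 to 16.05 (-0.14 ± 0.12, adjusted p = 0.550). The ranges of the sides overlapped in all 3. Probe sets differ in their response, so these values do not rank the transcripts by amount.

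Ndufab1 encodes the mitochondrial acyl carrier protein, which serves fatty acid and lipoic acid synthesis besides being bound to complex I. Its difference was near 0. Its values were 6.64, 6.57, 6.64, 6.61 and 6.59 against 6.52, 6.66, 6.66, 6.59 and 6.63 (difference -0.002 ± 0.05, interval -0.11 to 0.11). Ndufa4, once taken for a complex I subunit and now known as a subunit of cytochrome c oxidase, stood at 13.85 ± 0.23 against 14.01 ± 0.17 (-0.16 ± 0.12, adjusted p = 0.490). Ndufa4l2, its hypoxia-inducible relative, stood at 4.34 ± 0.16 against 4.38 ± 0.17, and was the only one of the 46 genes with a mean below every array's median signal. At that level its detection was not established. The gene copies Ndufb4b, Ndufb4c and Ndufa11b had differences of -0.01, -0.10 and 0.01 and did not pass (adjusted p from 0.728 to 0.967).

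The assembly factors had a median difference of -0.19, and none of the 8 passed over all genes in limma. Of the 8 differences, 7 were negative. At an unadjusted p under 0.05, 6 of the 8 were lower, as were 3400 of all 30142 genes. Ndufaf5, an enzyme that hydroxylates an arginine of Ndufs7, read 8.31, 8.50, 8.32, 8.38 and 7.98 ipsilaterally and 8.54, 8.66, 8.57, 8.59 and 8.74 contralaterally. The sides did not overlap, ipsilateral replicate 5 was lowest, and the difference of -0.32 ± 0.09 did not pass (adjusted p = 0.0692). Ndufaf3, which helps to build the ubiquinone-reducing module, read 8.94, 9.13, 8.90, 9.19 and 9.04 against 9.18, 9.14, 9.28, 9.30 and 9.43. Only ipsilateral replicate 4 reached into the contralateral range (-0.23 ± 0.08, adjusted p = 0.123).

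The other members of this group are given to complete it. Ndufaf7, a protein arginine methyltransferase, had a difference of -0.23 (adjusted p = 0.167). Ndufaf4, a partner of Ndufaf3, was at -0.21 (0.229), Ndufaf2, which attends the late joining of the NADH-oxidising module, at -0.17 (0.296), Ndufaf1, a factor of the membrane arm, at -0.17 (0.225), and Ndufaf6 at -0.16 (0.190). Ndufaf8, a partner of Ndufaf5, was at 0.02 (0.919). The mean signal of the 8 genes was 7.94 to 8.11 ipsilaterally and 8.12 to 8.28 contralaterally. Their median stayed negative with quantile (-0.18), median (-0.25) and cyclic loess scaling (-0.14).

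**Figure D3:**
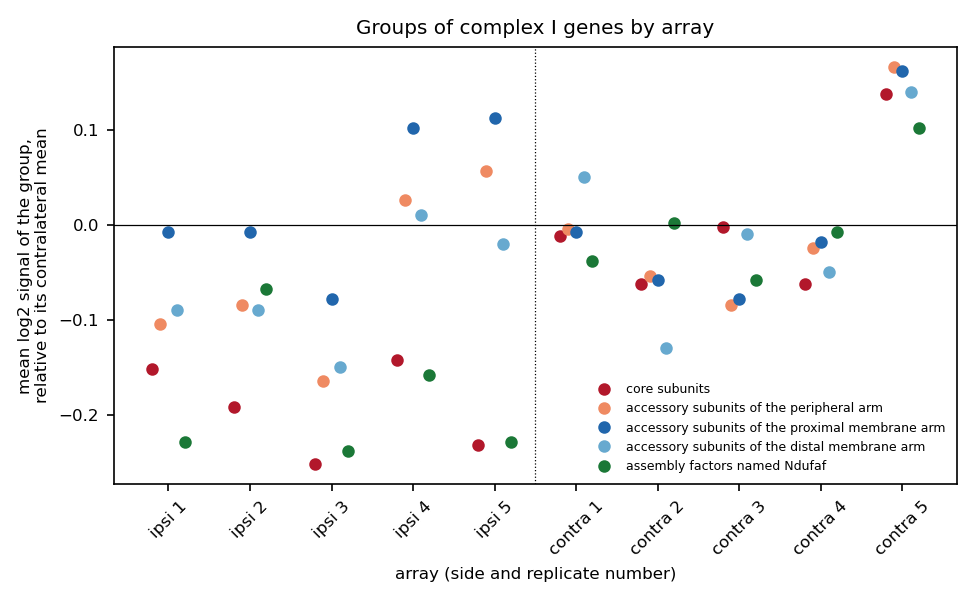
Mean log2 signal of 5 role groups on each of the 10 arrays, as a difference from the group's own contralateral mean; points of one array are spread sideways for legibility and replicate numbers carry no order. Core subunits and assembly factors lie below 0 on all 5 ipsilateral arrays, and all 5 groups are highest on contralateral replicate 5.

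Some of the spread was shared by the genes within a side. Contralateral replicate 5 was the highest contralateral array in 34 of the 46 genes (73.9%), against 26.2% of all genes tested. Ipsilateral replicate 3 was the lowest ipsilateral array in 20 of them (43.5%, against 28.5%) and the highest in none, and ipsilateral replicate 4 was the highest in 20 (43.5%, against 26.9%). Without contralateral replicate 5 the median difference was -0.07 and 30 of 46 differences were negative, and without ipsilateral replicate 3 it was -0.08 with 31 negative. The 5 genes outside the group whose signal over the 10 arrays correlated most with the mean of the 46, each centred on its own mean, were Sln (r = 0.955), Ppa2 (0.952), Krtap13 (0.945), Olfr777 (0.943) and Traf2 (0.941). These were picked as the highest of all genes over only 10 arrays that share array offsets. Krtap13 and Olfr777 had means of 3.06 and 3.54, below every array median. Ppa2, the mitochondrial inorganic pyrophosphatase, had a difference of -0.25 (adjusted p = 0.158).

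Differences over all genes varied with the level of the signal. Over all genes with a mean signal between 8 and 10, the median difference was -0.06, and over those between 10 and 12 it was -0.06, while it was 0.04 up to 6. The genes described here had medians of -0.12 (16 genes), -0.14 (11 genes) and -0.04 (1 gene) in these ranges. Between 6 and 8, 11 of them had a median of 0.006, against 0.002 for all genes, and above 12, 7 had a median of -0.11, against 0.02. After scaling that adjusts values by level, the median of the 46 was -0.05 (quantile, 33 negative) or -0.03 (cyclic loess, 28 negative), and none of the 46 passed. Among all genes, 1113 were lower with quantile and 970 with cyclic loess scaling. With each array centred on its median, the median of the 46 was -0.17, and 39 differences were negative. With this centring 7 of the 46 genes were lower: Ndufs1, Ndufs3, Ndufv1, Ndufv2, Ndufs4, Ndufaf3 and Ndufaf5. Among all genes, 2130 of 30142 (7.07%) were lower in the same fit. The number of complex I genes that passed thus ran from 0 to 7 over the scalings.

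**Figure D4:**
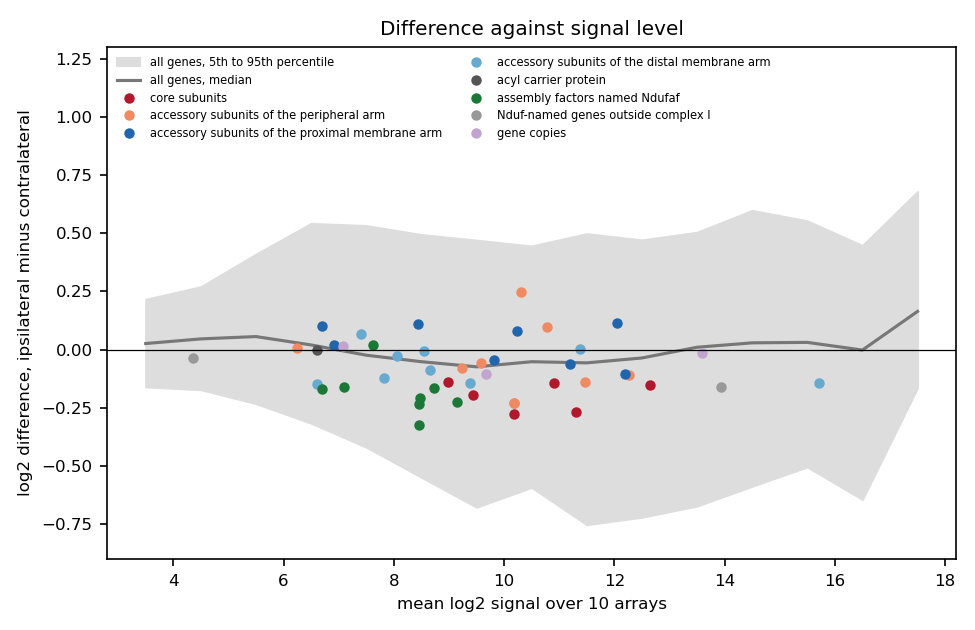
The difference between sides against the mean log2 signal over 10 arrays for the 46 genes, coloured by role, over the median (line) and the 5th to 95th percentile (band) of all genes in bins 1 unit wide. All 46 genes lie inside the band, and most of the core subunits and assembly factors lie below the line.

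The mitochondrial genome encodes further core subunits. Of 7 such genes, 3 had a probe set of their own. ND6, a membrane-arm subunit and the one of these transcribed from the opposite strand of the mitochondrial genome, rose. It read 18.10, 17.80, 17.62, 17.79 and 17.81 ipsilaterally and 17.32, 16.50, 17.09, 17.04 and 17.61 contralaterally. The sides did not overlap, though contralateral replicate 5 lay just under ipsilateral replicate 3. The difference was 0.71 ± 0.18 (adjusted p = 0.0435), between 0.56 and 0.84 in the other settings, and the call ended with a trended and robust variance and without any one of the 5 ipsilateral arrays or of contralateral replicates 1, 3 and 4 (adjusted p up to 0.102 over all settings). ND2 (0.10, adjusted p = 0.819) and ND3 (0.13, adjusted p = 0.579) did not pass, and ND3, at 19.70 and 19.57, lay near the highest value in the table, 19.93.

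Assembly factors with other names were also examined, with 10 of 12 measured. Of these, 2 fell, none rose, and 9 differences were negative, with a median of -0.15. Ecsit, a signalling adaptor that also acts in the membrane-arm assembly complex, read 8.58, 8.46, 8.41, 8.51 and 8.46 against 8.71, 8.69, 8.70, 8.70 and 8.73. Its groups did not overlap, and the contralateral arrays lay close together (-0.22 ± 0.05, adjusted p = 0.0273). Acad9, an acyl-CoA dehydrogenase of the same assembly complex, read 8.38, 8.22, 8.17, 8.24 and 8.13 against 8.44, 8.50, 8.48, 8.40 and 8.58, again without overlap (-0.25 ± 0.06, adjusted p = 0.0413). Both calls ended with quantile and cyclic loess scaling. That of Ecsit ended without each contralateral array and without ipsilateral replicates 2 and 5. That of Acad9 ended without each array except ipsilateral replicate 1 and contralateral replicate 4. The adjusted p reached 0.109 for Ecsit and 0.133 for Acad9 over all settings.

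The other respiratory complexes and general mitochondrial genes gave no call in limma. None passed of 8 genes of complex II (median difference -0.08), 9 of complex III (-0.05), 10 of complex IV (-0.05), 14 of complex V (-0.07), 11 regulators of mitochondrial biogenesis (-0.11) and 12 general mitochondrial genes such as Cs, citrate synthase, and Tomm20, an import receptor (-0.02). At an unadjusted p under 0.05, these lists held 1, 2, 2, 1, 3 and 2 lower genes in that order. The only higher one was Gabpa (0.20) among the regulators. Of all 30142 genes, 3400 were lower and 3020 higher at that threshold. Among the regulators, Tfam, the transcription factor of the mitochondrial genome, was at -0.24 (adjusted p = 0.0532), and Esrrg, an estrogen-related receptor, at -0.45 (0.0641). Of 12 hypoxia-induced genes, 9 differences were negative and 3 positive, with a median of -0.18. The largest was that of Adm, which was positive (0.60 ± 0.22, adjusted p = 0.147). At an unadjusted p under 0.05, 4 were lower and 1 was higher. After adjustment 3 fell and none rose. These were Egln1, an oxygen-sensing prolyl hydroxylase (-0.56 ± 0.07, adjusted p = 0.00197), Bnip3, a mitophagy receptor (-0.41 ± 0.07, adjusted p = 0.00952), and Pgk1, a glycolytic kinase (-0.36 ± 0.07, adjusted p = 0.0129). The call of Pgk1 ended with quantile scaling (adjusted p up to 0.0889 over all settings).

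Markers of the cell types in the tissue were examined too. Of 10 neuron markers, 3 fell (Rbfox3 by 0.54, Nefl by 0.89 and Nefm by 1.00) and none rose, with a median of -0.19. The call of Nefl ended without contralateral replicate 1 (adjusted p up to 0.0629 over all settings). Microglia and macrophage markers had a median of 0.90, none of 11 passing (8 with an unadjusted p under 0.05 in limma), and a mean signal of 8.13 to 9.89 ipsilaterally against 7.78 to 8.45. Of 9 astrocyte markers 1 rose (Aqp4, 0.95 ± 0.18), with a median of 0.32 and a mean signal of 11.13 to 12.08 against 10.98 to 11.33. At an unadjusted p under 0.05, 5 of them were higher and 1, Aldh1l1 (-0.36), was lower. Of the 9 astrocyte differences, 7 were positive and 2 negative. The largest was that of Gfap, which did not pass (2.07 ± 0.62, adjusted p = 0.0814 in limma). The 7 oligodendrocyte markers had a median of -0.64 with none passing (4 at an unadjusted p under 0.05) and a mean signal of 9.82 to 10.82 against 10.17 to 11.27. None of 8 endothelial (median 0.04, mean signal 7.99 to 8.65 against 8.05 to 8.45) or 10 pericyte and smooth muscle markers (0.30, 7.20 to 8.16 against 7.09 to 7.39) passed. At an unadjusted p under 0.05, 1 endothelial marker was lower and 1 higher, and 5 pericyte and smooth muscle markers were higher. The part of these cell types in the complex I values was not tested.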

How the data were processed

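RNA of 10 brain samples was hybridised to 1 array each. Log2 signals were deposited by the authors with 1 column per array. Per the submitters' processing notes, the software was Transcriptome Analysis Console 4.0. That values are log2 follows from their range (1.97 to 19.93). No source used here states the background correction, the normalization or the genome build. Of 65956 rows, 30604 named 1 gene symbol in the array annotation. Symbols were updated by Entrez identifier from RefSeq GRCm38.p6 (22818 rows matched), and the row with the highest mean was kept per gene, giving 30142 genes. All 10 arrays were fitted in limma 3.58.1 (R 4.3.3) with lmFit and eBayes and no covariates, two-sided, with Benjamini-Hochberg adjustment over all genes and a threshold of 0.05. The fit was tested on simulated data. No arrays were identical, and the labels give no batch. The members and all lists were chosen with earlier results of these data known. Genes named were those that passed, the 2 strongest statistics per role, Ndufa4, Ndufa4l2 and Ndufab1, and the highest and lowest signal, and others are marked as completing their group or were chosen after their values were seen. Alternatives were the replicate number as a block, variance models, array weights, 3 scalings, filters on dim genes, the mean of rows, protein-coding genes alone, a threshold of 0.01, membership and each array left out.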

Additional observations from a re-analysis of the deposited data

Results flagged for a closer look

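In each side of 5 arrays, 1 array was taken as standing apart when its gap to the next value exceeded 0.71 of the whole range, which chance gives in about 1 of 20 groups. Of 92 groups (46 genes on 2 sides), 6 did so. Contralateral replicate 5 was the array in 3 of them: Ndufs3 at 9.63, with the other 4 between 9.49 and 9.50, Ndufs4 at 10.53, with the others between 10.23 and 10.27, and Ndufs5 at 7.15, with the others between 6.81 and 6.90. Ipsilateral replicate 5 was the array for Ndufb3 at 9.58 (others 9.19 to 9.29) and Ndufv3 at 10.78 (others 10.25 to 10.39). Ndufa8 on ipsilateral replicate 2, at 11.13, was set apart because the other 4 arrays all read 11.17.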

How the results depend on the processing

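Of the 46 genes, 1 was lower on the deposited values. The number lower was 2 with array weights and without the lowest 25% of genes by mean. It was 3 without the lowest 50% and with protein-coding genes only, fits that each held 45 of the 46 genes. It was 7 with arrays centred on their medians, and 0 with quantile scaling, cyclic loess scaling or a threshold of 0.01. Among all genes tested, 1305 were lower on the deposited values, 1614 with array weights and 1474 without the lowest 25%. That number was 1637 without the lowest 50%, 1560 with protein-coding genes only, 2130 with median centring, 1113 with quantile and 970 with cyclic loess scaling. Leaving out 1 array at a time gave 0 to 2 of the 46, the 2 without ipsilateral replicate 1 (Ndufs1 and Ndufs3). Among all genes these fits gave 740 to 1607 lower, the most also without ipsilateral replicate 1. No setting gave a higher gene among the 46. Their median difference of -0.105 became -0.167 with median centring, -0.05 with quantile and -0.028 with cyclic loess scaling, and lay between -0.124 and -0.066 without single arrays. Leaving out Ndufa4 and Ndufa4l2, or, as alternatives added after seeing the data, the gene copies or the 3 genes with an updated symbol, left 1 gene lower. The labels do not say whether same-numbered samples share a mouse, and the values of 5 pairs cannot settle it. Deviations from the side means of same-numbered arrays correlated between -0.399 and 0.259, above 0.1 in 2 of 5 pairs. Of 10 samples, 3 correlated best with their own number. With the replicate block 0 of the 46 genes were lower, against 769 of all genes, and Ndufs1 had an adjusted p of 0.109. The block also ended the calls of Bnip3 (adjusted p = 0.0654), Pgk1, Nefl, ND6, Ecsit and Acad9. Signs turned for Ndufab1 (-0.025 to 0.01 without single arrays) without contralateral replicates 2, 3 and 5 (0.01, 0.01 and 0.002) and ipsilateral replicates 2 and 5 (0.008 and 0.003), and for Ndufa4l2 (-0.11 to 0.007) without ipsilateral replicate 2 (0.007). The other 12 of the 14 genes followed singly kept their sign in every setting run. Ndufaf8, not among them, turned negative with median centring and without contralateral replicate 3 or ipsilateral replicates 2 or 5.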
